A study of Mus musculus with 18 samples.

Results

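Trimethylation of lysine 36 of histone H3 (H3K36me3) was mapped by ChIP-seq in 1 library of Setd2-deficient leukemia cells (KO AML; genotype NHD13 with Setd2 KO) and in 1 library of NHD13 leukemia cells (NHD13 AML), both from C-Kit+ spleen cells of C57BL/6 mice. Setd2 was deleted by Mx1-Cre, a recombinase under an interferon-inducible promoter that is active in blood cells and also in other tissues such as liver. The regions described here were selected on these 2 lists: they are the short peaks of the NHD13 AML list that had no counterpart in the KO AML list: on chromosomes 1 to 19, shorter than 10000 bp, with a fold enrichment of at most 100 and a −log10 q of at least 3, and not overlapping any KO AML peak by 1 bp. The rule kept 21155 of the 30953 peaks in the NHD13 AML list, and 21155 of the 24491 short peaks that met the other limits. They are called lost short peaks below, the 3336 short peaks that touched a KO AML peak are called retained, and the 5449 peaks of 10000 bp or more are called long. Lost means absent from the list called in the KO AML library, which is the property used to choose the regions, so the ChIP values describe them and test nothing. Each ChIP group is 1 library, and neither its input nor its read depth is stated in the labels or files.

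NHD13 is the NUP98-HOXD13 fusion transgene, which causes a myelodysplastic syndrome in mice that can progress to acute myeloid leukemia (AML), and all groups but the wild type carry it. RNA was measured in 4 groups of 3 libraries, and DNA methylation by whole-genome bisulfite sequencing in 1 library of each of these groups. AML is C-Kit+ spleen cells of NHD13/Setd2 KO mice with leukemia. KO is hematopoietic stem and progenitor cells (HSPCs) of bone marrow with NHD13/Setd2 KO, NHD13 is HSPCs with NHD13/Setd2 flox/flox, and WT is HSPCs of C57BL/6 mice. The labels name neither age and sex nor the animals behind each library, so the p-values below measure only the spread between libraries, which may be technical. RNA and methylation were not measured here in NHD13 AML, the cells in which the peaks were called, so both readouts come from other cells than the peak list.

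Setd2 is the methyltransferase that trimethylates H3K36 while it rides on elongating RNA polymerase II. The mark therefore lies over the bodies of transcribed genes and is mostly absent from their promoters. It is read by proteins with a PWWP domain, among them the DNA methyltransferases Dnmt3a and Dnmt3b, which methylate CpG sites within gene bodies, and by other chromatin factors. Nsd1, Nsd2 and Ash1l place the lower methylation states of the same lysine. Loss of SETD2 is recurrent in human leukemia.

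The sequences that follow show what a lost short peak can cover. Most lay inside genes, and 244 of the 21155 (1.15%) touched a RefSeq promoter window. Such a window spans 250 bases before to 50 after an annotated start, and a gene can have several starts. The share was 2.82% for retained short peaks, 7.32% for long ones and 0.966% for the KO AML list. Per megabase covered, lost short peaks touched 5.28 windows, retained ones 6.24 and long ones 3.86. The windows of Gm46741, a predicted gene within Stam2, and of Cldn15, a claudin of tight junctions, are shown because peaks of high enrichment covered them whole. Those of Dnajc6, the co-chaperone auxilin, and of Dnajb3, another co-chaperone of the DnaJ family, are shown because they also met a differentially methylated region, and were picked after their values were seen. A lost short peak covered the whole window of Dnajc6, while the peak at Dnajb3 reached only the end of the window nearest the gene. The Dnajc6 window belongs to an internal start, well inside the gene (chr4:101496648-101642799), and not to the gene's outermost start. All are from RefSeq on GRCm38.p6 and are written 5′ to 3′ on the gene's strand, with CpG sites in capitals. They lie at chr2:52699092-52699391 (minus strand, 3 CpG sites), chr5:136967619-136967918 (plus, 7), chr4:101550344-101550643 (plus, 16) and chr1:88205699-88205998 (minus, 19).
Gm46741: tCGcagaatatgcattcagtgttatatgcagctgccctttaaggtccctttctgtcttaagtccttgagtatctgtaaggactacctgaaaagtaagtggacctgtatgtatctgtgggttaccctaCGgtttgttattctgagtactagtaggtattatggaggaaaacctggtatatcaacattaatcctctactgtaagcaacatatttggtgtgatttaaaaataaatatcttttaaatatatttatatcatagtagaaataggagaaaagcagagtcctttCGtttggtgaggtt
Cldn15: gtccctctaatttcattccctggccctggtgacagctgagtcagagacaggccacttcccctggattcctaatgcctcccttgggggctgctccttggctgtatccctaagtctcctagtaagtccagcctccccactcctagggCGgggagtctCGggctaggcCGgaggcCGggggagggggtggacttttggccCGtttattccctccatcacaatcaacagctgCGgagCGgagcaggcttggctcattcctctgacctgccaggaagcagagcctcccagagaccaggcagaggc
Dnajc6: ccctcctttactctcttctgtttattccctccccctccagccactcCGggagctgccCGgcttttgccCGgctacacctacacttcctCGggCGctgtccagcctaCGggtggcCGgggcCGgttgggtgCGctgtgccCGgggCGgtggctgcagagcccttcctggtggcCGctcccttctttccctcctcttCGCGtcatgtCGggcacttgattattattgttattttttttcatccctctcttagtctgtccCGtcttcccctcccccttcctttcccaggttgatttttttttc
Dnajb3: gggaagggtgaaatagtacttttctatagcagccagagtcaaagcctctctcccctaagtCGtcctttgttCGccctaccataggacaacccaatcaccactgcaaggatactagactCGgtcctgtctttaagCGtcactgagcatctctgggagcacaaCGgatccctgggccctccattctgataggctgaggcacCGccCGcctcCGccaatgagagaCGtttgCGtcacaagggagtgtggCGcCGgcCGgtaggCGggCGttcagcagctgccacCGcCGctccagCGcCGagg

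The 188 promoter windows that lost short peaks covered whole were poor in CpG sites. Their median was 4 CpG sites and 48.3% G and C, against 7 CpG sites and 53.0% over all 31396 windows of chromosomes 1 to 19. GGGCGG, the GC box, was found on either strand in 9.57% of the covered windows and in 36% of all windows. The TATA box TATAAA stood in 12.2% against 13.6%, CCAAT in 40.4% against 37.3%, and GGAAGT, the core that ETS factors such as PU.1 recognise, in 20.7% against 23.9%. None of these motifs contains another, and a match is a description of the letters only. The low CpG content was not particular to the lost peaks, since the 441 windows under long peaks also had a median of 4 and the 80 under retained short peaks a median of 5.5. The printed windows of Gm46741 and Cldn15 hold 3 and 7 CpG sites, and those of Dnajc6 and Dnajb3 hold 16 and 19.

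Of the 919 microRNA hairpins of RefSeq on these chromosomes, 59 lay inside lost short peaks, 53 inside retained ones and 188 inside long peaks. Mature arms from 5 hairpins are printed as examples of small RNA genes within these regions, picked after the hairpins were known, with the seed (bases 2 to 8) in capitals. miR-27a and miR-24 come from 1 peak of 1572 bp at chr8:84208519-84210090, with a fold enrichment of 4.48 and a KO AML peak 1155 bp away. They belong to a cluster known in blood cells for restraining lymphoid fates. miR-342 is a myeloid microRNA whose hairpin lay in a peak of 6900 bp on chromosome 12, and miR-195a, of the miR-15 and miR-16 seed family, lay in one of 1102 bp on chromosome 11. The printed arms carry different seeds.
miR-27a-3p: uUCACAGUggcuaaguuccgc
miR-24-3p: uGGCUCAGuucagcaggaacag
miR-342-3p: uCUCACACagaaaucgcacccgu
miR-326-3p: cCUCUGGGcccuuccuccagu
miR-195a-5p: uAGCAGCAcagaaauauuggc

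The KO AML list was much smaller than the NHD13 AML list. It held 16902 peaks over 28.4 Mb, against 30953 peaks over 193 Mb in NHD13 AML, and its median peak was 1101 bp long against 2503 bp. Of all 29945 NHD13 AML peaks on chromosomes 1 to 19, 75.3% had no KO AML peak. The share was 86.4% among short peaks (Wilson 95% interval 85.9% to 86.8%; intervals here cover counting error only) and 25.7% among long ones (24.6% to 26.9%). The lost short peaks covered 50.2 Mb, the retained ones 16.7 Mb and the long ones 123 Mb.

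Lost short peaks were shorter and weaker than the rest of the list they came from. Their lengths had a median of 1582 bp and ran from 295 to 9995 bp, and their fold enrichments had a median of 4.22 and ran from 3.64 to 10.5. Retained short peaks had a median of 4960 bp and 4.92-fold, and reached 42.1-fold. The share lost was 96.9% below 500 bp and 62.1% from 5000 to 10000 bp. The rule itself bears on length. It caps lost peaks at 10000 bp, and a longer peak has more bases at which a KO AML peak can overlap it by 1 bp. By enrichment it was 96.9% below 4-fold, 59.4% from 5- to 6-fold and 4.88% at 8-fold or more, where 2 of 41 short peaks were lost. Every chromosome gave a share between 79.4% (chromosome 17) and 90.0% (chromosome 12).

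**Figure D1:**
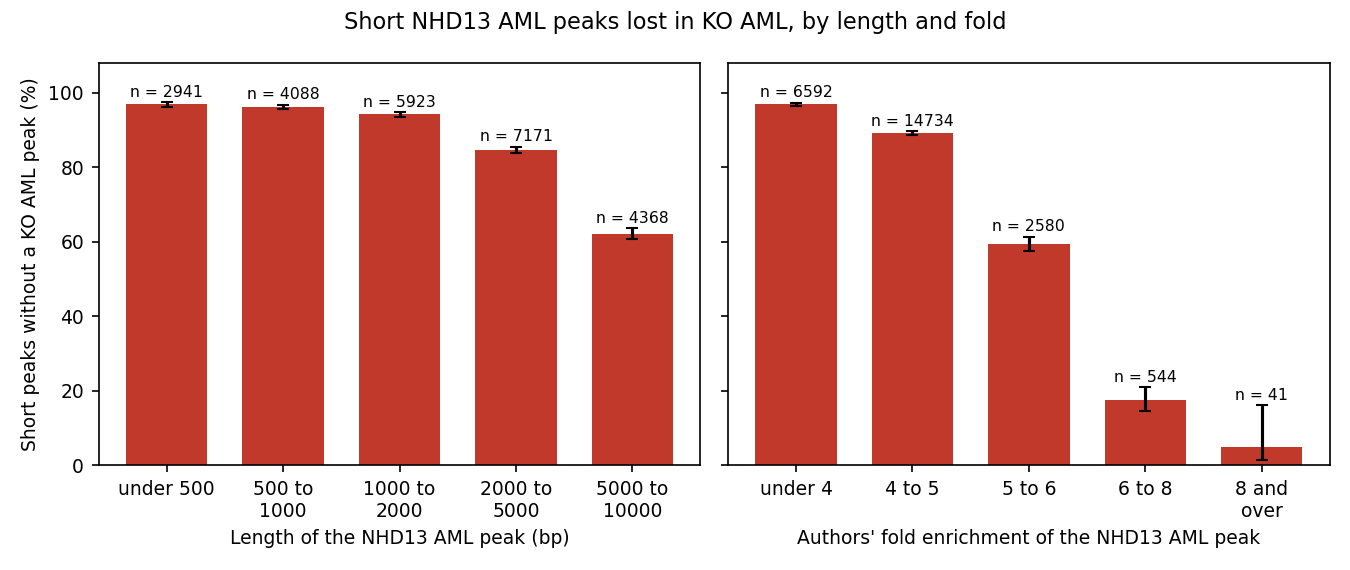
Percentage of short NHD13 AML peaks without a KO AML peak (vertical axis), by peak length in bp (left) and by the authors' fold enrichment (right); bars are shares, whiskers Wilson 95% intervals and n the short peaks in each bin. The share falls to 62.1% in the longest bin and to 4.88% in the bin of highest enrichment. A longer peak has more bases at which a KO AML peak can overlap it, so the fall with length is partly set by the rule.

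The 2 lists did not reach down to the same enrichment. The lowest fold enrichment was 4.4 in the KO AML list and 3.64 in the NHD13 AML list, and 13550 lost short peaks (64.1%) were below 4.4-fold, where the KO AML list holds no peak at all. Among the 10233 short peaks at or above that level, 7605 were lost, which is 74.3% (73.5% to 75.2%). The part that library depth or antibody recovery has in the difference between the lists was not tested. At the limits of the rule, the longest lost peak measured 9995 bp and the shortest long peak 10007 bp, and the closest lost peak lay 1 bp from a KO AML peak while the smallest overlap of a retained one was 4 bp. The limit on enrichment kept 5 peaks out, the weakest at 189-fold, and the limit of 3 on −log10 q kept none out, since the list starts at 3.38. Retained short peaks were in the median covered by KO AML peaks over 25.8% of their length, and 182 of them by less than 300 bp.

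Most lost short peaks had another NHD13 AML peak near them, and few had a KO AML peak as near. Another NHD13 AML peak lay within 5000 bp of 80.3% of them, with a median gap of 2024 bp, against 72.6% and 2312 bp for retained short peaks. A KO AML peak lay within 1000 bp of 1.37%, within 5000 bp of 12.9% and within 50000 bp of 66.1%, and the median distance was 25880 bp. Lost short peaks that followed each other with no other NHD13 AML peak between them formed 5231 runs, the longest of 55 peaks. No other NHD13 AML peak lay within 1000 bp of any lost or retained short peak. The NHD13 AML list is the larger one, and the rule itself keeps KO AML peaks out of the lost short peaks.

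By position, the lost short peaks lay in gene bodies, as the other classes did. Of the 21155, 20481 (96.8%) overlapped a RefSeq gene, 95% a protein-coding one, and 90.8% lay wholly inside 1 gene. The share over a gene was 97.5% for retained short peaks, 100% for long ones (5448 of 5449) and 94.1% for the KO AML list. The share wholly inside 1 gene was 66.8% for retained short peaks, 49.1% for long ones and 90.2% for the KO AML list, whose peaks are also short. In genes of 10000 bp or more with a known strand, their midpoints were spread almost evenly from start to end, when the gene is cut into 10 equal parts, with 8.13% in the first part and between 9.55% and 11.2% in each of the others. Retained short peaks were nearly as even, with 6.68% in part 1, 13.4% in part 10 and between 8.91% and 11.4% in each part between. Midpoints of long peaks gathered past the middle of the gene, with 21.1% in part 6 and 0.955% in part 1. Their length partly sets this. In a gene not much longer than the peak, the midpoint can lie near the start only if the peak reaches past the gene. Peaks of the KO AML list became more frequent along the gene, with 3.34% in part 1 and 13.8% in part 10.

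**Figure D2:**
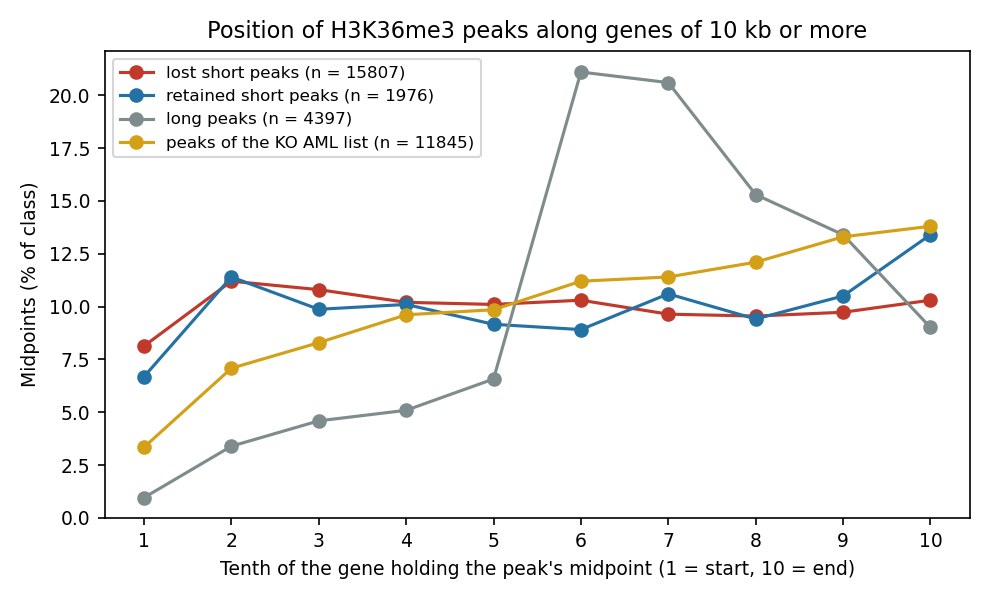
Share of peak midpoints (vertical axis, percent of each class) in each of 10 equal parts of the gene, from start (1) to end (10), for genes of 10000 bp or more; each line is 1 peak class, with its number of midpoints in the legend. Lost short peaks stay between 8.13% and 11.2% in every part, while the KO AML list reaches 13.8% in part 10.

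The 8 lost short peaks of highest enrichment lay in or beside named genes. The strongest, at 10.5-fold, was a peak of 452 bp in Tusc3 (chr8:39152832-39153283), a subunit of the oligosaccharyltransferase, and a KO AML peak lay 2191 bp away. The next, at 8.76-fold, covered 2534 bp of Csf2ra (chr19:61224551-61227084), the alpha chain of the GM-CSF receptor, and the nearest KO AML peak was 97381 bp away. The others, between 7.22- and 7.81-fold, overlapped H2-Q6, a nonclassical MHC class I gene, Kcnk12, Ubxn11 with Sh3bgrl3, Stam2 with Gm46741, Copg2, and Fstl3 with Prss57. Prss57 encodes a serine protease of neutrophil granules.

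DNA methylation gave a readout of the same regions that the choice of peaks did not use, although in other cells. The authors' deposited tables list differentially methylated regions (DMRs) between pairs of bisulfite libraries, 1 library a group, so the shares below carry counting error only and no test. Between KO and NHD13 progenitors, 784 lost short peaks (3.71%, interval 3.46% to 3.97%) overlapped a DMR, against 8.59% of all NHD13 AML peaks on these chromosomes. Per megabase the lost short peaks held 17 such DMRs, retained short peaks 27.7 and long peaks 16.7, so by length covered the lost peaks were close to the long ones.

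Inside lost short peaks, DMRs were mostly less methylated in KO than in NHD13 progenitors, the opposite of the genome at large. Of the 854 DMRs that overlapped lost short peaks by 1 bp or more, 559 (65.5%, interval 62.2% to 68.6%) were lower in KO and 295 were higher. The authors' whole table had 20.8% lower, DMRs outside every NHD13 AML peak had 15.1% lower (14.7% to 15.5%), and those outside peaks but within the same host genes had 30.3% lower (29.0% to 31.5%). Retained short peaks, with 79.0%, and long peaks, with 70.6%, shared the direction, so it was not particular to the lost ones. DMRs in lost short peaks had a median of 14 CpG sites, against 9 outside every peak. Among DMRs of 10 or more CpG sites the shares were 72.5% in lost short peaks and 17.5% outside every peak.

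The other tables gave the same regions against other pairs. Between AML and KO cells, 925 lost short peaks (4.37%, against 9.3% of all NHD13 AML peaks) held 992 DMRs, of which 44.0% (40.9% to 47.1%) were lower in AML and 556 were higher. Outside every peak 78.1% of DMRs were lower in AML, and within host genes but outside peaks 59.6% were. With 10 or more CpG sites the shares came closer, at 43.7% in lost short peaks and 53.1% outside. Between NHD13 and WT progenitors, 1032 lost short peaks (4.88%, against 9.73%) held 1159 DMRs, of which 77.0% (74.5% to 79.3%) were lower in NHD13, next to 82.1% outside every peak. Per megabase the DMRs of NHD13 over WT numbered 23.1 in lost short peaks, 25.8 in retained ones and 20.2 in long ones. The 3 tables share libraries, so their values are given side by side and not as independent evidence.

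**Figure D3:**
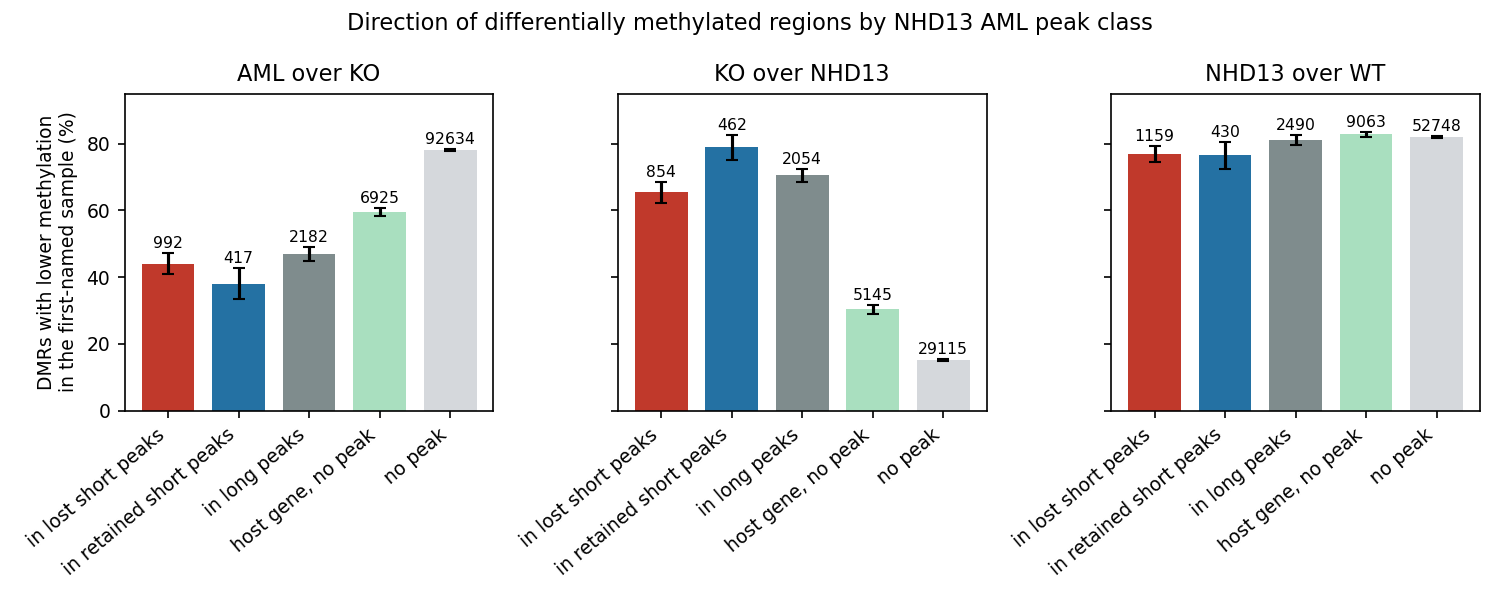
Percentage of DMRs that are less methylated in the first-named sample (vertical axis) in AML over KO, KO over NHD13 and NHD13 over WT, for DMRs that overlap each class of NHD13 AML peak and for DMRs outside every peak; whiskers are Wilson 95% intervals and the figure over each bar is the number of DMRs. In KO over NHD13 the bar of lost short peaks reaches 65.5%, against 15.1% for DMRs outside every peak.

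The single regions that follow are from the 8 lost short peaks with the largest differences in KO over NHD13, as mean methylation levels of the authors. They are the extremes. The median difference, KO minus NHD13, was -0.23 over all DMRs that overlapped lost short peaks. At Hoxa2, a homeobox gene, the authors' deposited table has a DMR of 204 CpG sites that begins in a lost short peak (chr6:52163020-52164488), with a level of 0.312 in KO and 0.867 in NHD13. In the authors' deposited tables the same region stood at 0.944 in AML and 0.312 in KO, and an overlapping region of 169 sites at 0.845 in NHD13 and 0.352 in WT. At Mex3a, an RNA-binding protein gene, a DMR of 160 CpG sites around a peak of 350 bp had, in the authors' deposited table, 0.317 in KO and 0.933 in NHD13. In the authors' deposited table Zfp703, with 0.209 in KO against 0.811 in NHD13, and Ccdc32, with 0.275 against 0.907, went the same way. In the authors' deposited tables Fbxl8 had 0.402 in KO and 0.928 in NHD13, and also 0.919 in NHD13 against 0.447 in WT. Overlapping regions in AML over KO went both ways in the authors' deposited table, with 0.094 in AML and 0.258 in KO at Mex3a, and 0.819 in AML and 0.41 in KO at Fbxl8. Among the DMRs of the authors' deposited table that overlapped lost short peaks, the one in Tbc1d22a was higher in KO and the other 7 of the 8 with the largest difference were lower. Tbc1d22a had, in the authors' deposited table, 0.954 in KO and 0.44 in NHD13 over 4 CpG sites. The files give no coverage for these values.

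The RNA of these genes did not follow 1 pattern. Mex3a had 3.37, 2.66 and 3.27 CPM (counts scaled to library size with TMM factors) in KO and 0.108, 0.262 and 0.247 CPM in NHD13, without overlap (log2 fold change 3.86, SE 0.52, edgeR adjusted p = 3.74e-05). Zfp703 had 3.0, 2.17 and 2.75 CPM in KO and 1.94, 3.15 and 3.21 CPM in NHD13, which overlap (log2 fold change -0.09, edgeR adjusted p = 0.755). Hoxa2 was low in both, with 0.422, 0.533 and 1.04 CPM in KO and 0.378, 0.315 and 0.247 CPM in NHD13 (log2 fold change 1.08, SE 0.47, edgeR adjusted p = 0.0729). It passed without the first KO library (1.29, edgeR adjusted p = 0.0464). In KO over NHD13, promoter windows touched by lost short peaks met DMRs of both directions, lower in KO at Dnajc6, Dnajb3, Gm32336 and Gm34455 and higher at Fbxo27 and 4930595D18Rik. No such DMR met the printed windows of Gm46741 and Cldn15. In the authors' deposited table the DMR at Dnajc6 had 0.205 in KO and 0.499 in NHD13, and that at Dnajb3 0.637 in KO and 0.925 in NHD13. Dnajc6 had 1.44 to 1.62 FPKM (fragments per kilobase of transcript, scaled to library size) in KO and 0.683 to 0.772 FPKM in NHD13 (log2 fold change 0.88, SE 0.14, edgeR adjusted p = 4.62e-05). These values are for the whole gene and do not single out transcripts from the internal start of the printed window. Dnajb3 lies within the span of Ugt1a genes, and their reads cannot be told apart if strand was not used. It had 2.08 to 2.23 FPKM in KO and 0.77 to 1.15 FPKM in NHD13 (log2 fold change 0.91, SE 0.26, edgeR adjusted p = 0.00843).

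The lost short peaks fell into 6893 RefSeq genes, called host genes, of which 5688 are protein-coding and 773 are long noncoding RNA genes. These chromosomes hold 20665 protein-coding genes, with a median length of 17491 bp, against 35464 bp for the protein-coding hosts. Of the 6893 host genes, 6228 were matched to the RNA table by symbol and 5714 passed the filter on low counts. A host gene held a median of 2 lost short peaks, 3377 held 1, and 456 held 10 or more. The number was higher in longer genes (Spearman's rho 0.66 across protein-coding host genes, which are not independent replicates) and hardly varied with the RNA level in AML (rho -0.04). No KO AML peak lay anywhere in 4104 host genes, while 2789 had one elsewhere in the gene. Over protein-coding host genes with a KO AML peak, a median of 4.49% of the gene was under KO AML peaks and 59.4% under NHD13 AML peaks. In 25 of these 2647 genes the KO AML peaks covered more of the gene than the NHD13 AML peaks did.

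The genes with most lost short peaks were very long. Arhgap15, a Rac GTPase-activating protein of blood cells, held 88, with 17.9 kb under KO AML peaks and 311 kb under NHD13 AML peaks. Foxp1, a transcription factor of lymphoid and myeloid cells, and Vps13b, a lipid transfer protein of the Golgi, each held 72. Abca13, a lipid transporter, held 52, with no KO AML peak and 137 kb under NHD13 AML peaks. Mctp1 held 48, the nuclease Snd1 45, the zinc transporter Slc39a11 42 and the sorting nexin Snx29 41. In KO over NHD13, Abca13 fell (log2 fold change -2.84), as did Mctp1 (-0.79) and Slc39a11 (-0.97), and the others did not pass the test. Arhgap15 stood at 136 to 153 CPM in KO and 102 to 143 CPM in NHD13 (log2 fold change 0.22, edgeR adjusted p = 0.0716), and passed without the second NHD13 library (0.33, edgeR adjusted p = 0.00788).

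Host genes were transcribed, at moderate levels. The median over protein-coding host genes was 6.89 FPKM in AML, 3.43 in KO, 3.12 in NHD13 and 4.07 in WT, next to 0.728, 0.324, 0.253 and 0.520 over all protein-coding genes. Hosts without a KO AML peak had a median of 4.5 FPKM in AML, and hosts with one 9.61 FPKM. Genes with a long peak and no lost short peak had 13.8 FPKM, and those with a retained short peak and no lost one 17.4 FPKM. The libraries of a group lay close together, with medians of 6.92, 6.91 and 6.81 FPKM over host genes in AML and 3.36, 3.51 and 3.36 FPKM in KO. Genes with no NHD13 AML peak had a median of 0 FPKM in each library. Fewer cells of a type and less RNA per cell cannot be told apart in these bulk samples.

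**Figure D4:**
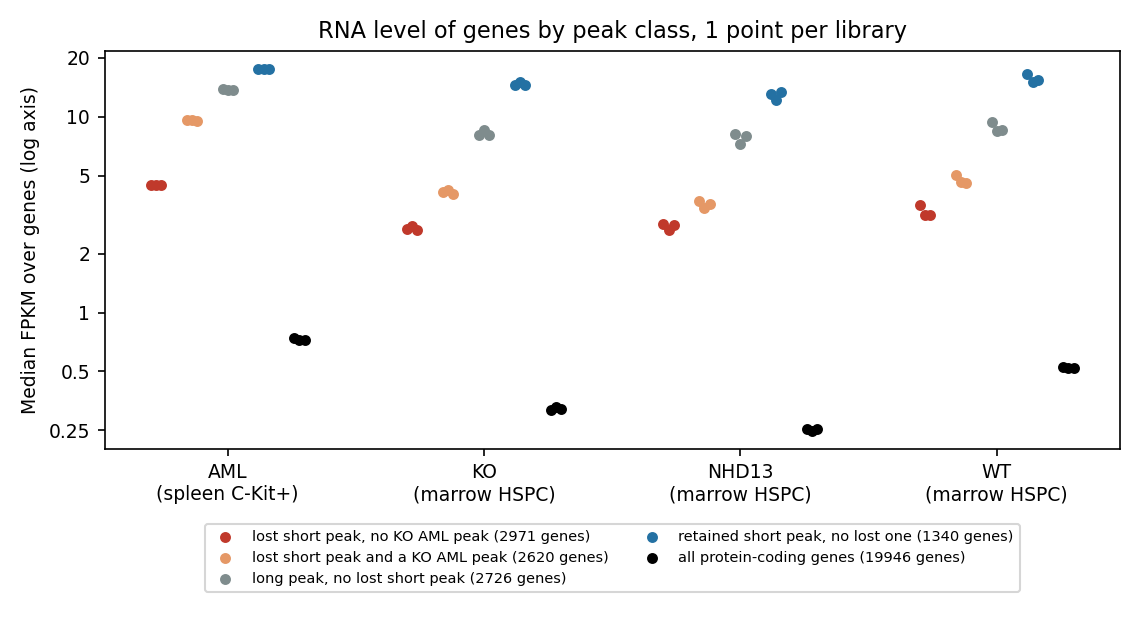
Median FPKM (vertical log axis) over the genes of each peak class in every RNA library, with 3 points a group; numbers of genes are in the legend. Genes with a lost short peak lie below those with long or retained short peaks in all 12 libraries, and above all protein-coding genes.

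The targeted gene was checked first. Setd2 had 33.1, 29.2 and 34.9 CPM in KO and 34.4, 34.6 and 31.5 CPM in NHD13, which overlap (log2 fold change -0.05, SE 0.08, edgeR adjusted p = 0.685). In AML it had 183, 187 and 179 CPM, above every KO library (log2 fold change 2.5, SE 0.08, edgeR adjusted p = 1.64e-15). Whole-gene counts do not show whether part of the transcript was deleted. Setd2 itself was a host gene, with 1 lost short peak, 10 KO AML peaks, 19.4 kb under KO AML peaks and 77.9 kb under NHD13 AML peaks. Library totals ran from 18673704 to 28127686 counts. Kit, the receptor used to sort the spleen cells, stood at 211 to 217 CPM in AML, and no list of progenitor, erythroid, neutrophil, B cell, T cell, macrophage, stromal or dendritic markers had a member at 0 in all AML libraries.

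In the marrow comparison, calls among host genes leaned lower than calls among all genes, and by less against protein-coding genes alone. Of 5714 host genes tested in KO over NHD13, 1159 (20.3%) were higher and 1504 (26.3%) lower, against 20.6% and 20.3% of all 16233 genes. Of the 12255 protein-coding genes tested, most hosts among them, 22.1% were higher and 24.0% lower. The median log2 fold change was -0.04 over hosts, -0.01 over protein-coding genes and 0.02 over all genes. Of the calls, 43.5% were higher among hosts and 50.3% among all genes. Upper-quartile factors moved hosts and all genes up together: 1423 hosts were higher and 1250 lower (53.2% of calls higher), against 3966 and 2778 of all genes (58.8%). With limma on log2(FPKM + 1), which carries no correction for library composition, 1525 of 6161 hosts were higher and 726 lower (67.7%), against 4079 and 1675 of 33660 genes (70.9%). The host median minus that of all genes was -0.06 with TMM and with upper-quartile factors, and 0.06 on the log2(FPKM + 1) scale. Hosts without a KO AML peak were higher in 16.7% and lower in 29.9%, and hosts with one were higher in 24.4% and lower in 22.2%. With limma on log2(FPKM + 1), hosts without a KO AML peak were higher in 18.6% and lower in 14.5%. Hosts with one were higher in 32.6% and lower in 8.23%. Hosts without a KO AML peak thus had more falls than rises with TMM, but fewer on the FPKM scale. On both scales their share of falls was above that of hosts with one. With TMM, genes with a long peak and no lost short peak had 15.2% higher and 25.3% lower, so the balance was not particular to lost short peaks.

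In the leukemia comparison host genes rose more often. Of the 5714 hosts, 2927 (51.2%) were higher and 1998 (35.0%) lower in AML than in KO, against 42.8% and 39.5% of all genes. The medians were 0.32 over hosts and 0.07 over all genes. Of the 12255 protein-coding genes tested, 46.0% were higher and 38.6% lower, with a median of 0.17. Of the calls, 59.4% were higher among hosts and 52.0% among all genes. With limma on log2(FPKM + 1), 3572 of 6161 hosts were higher and 1409 lower (71.7% of calls higher), against 10096 and 5254 of 33660 genes (65.8%). With upper-quartile factors 2652 hosts were higher and 2277 lower (53.8%), against 6332 and 7056 of all genes (47.3%). Hosts without a KO AML peak were balanced, with 41.9% higher and 41.8% lower, and hosts with one had 62.0% higher and 27% lower. With upper-quartile factors hosts without a KO AML peak had 38.1% higher and 47.0% lower. Gene length moved with this. Hosts under 10000 bp had a median log2 fold change of -0.44 and hosts of 100000 bp or more 0.9, and tested genes that were no hosts had -0.47 and 0.24 at those lengths. The part of length in the host genes' shift was not tested beyond these values. KO and AML also differ in tissue, marrow against spleen, and in the sort, which cannot be told apart from the disease stage.

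Neutrophil genes made up the clearest group among hosts that fell in KO. Of the 26 genes on the neutrophil list, 13 were hosts, next to 5688 of all 20665 protein-coding genes. Of the 13, 12 had no KO AML peak. All 12 hosts tested were lower in KO than in NHD13, with a median log2 fold change of -1.63, as were all 25 listed genes tested, hosts or not, against 20.3% of all genes. S100a9, a calprotectin subunit, had 1350, 1220 and 1198 CPM in KO and 15740, 21228 and 15061 CPM in NHD13. The groups were far apart (log2 fold change -3.79, SE 0.18, edgeR adjusted p = 8.65e-09), and 48.0% of the gene was under NHD13 AML peaks and none under KO AML peaks. Lcn2, the siderophore-binding lipocalin of neutrophil granules, had 96.7, 99.2 and 94.7 CPM in KO and 1714, 1971 and 1759 CPM in NHD13 (log2 fold change -4.23, SE 0.11, edgeR adjusted p = 1.08e-14). The summed level of the 5 neutrophil markers, none of them at 0 in AML, was 20212 to 22893 CPM in KO and 65791 to 76637 CPM in NHD13. Sums of markers are scaled to library totals without TMM factors, unlike the CPM of single genes. The part of cell makeup in these falls was not tested.

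Further genes of neutrophils are given by their values. Cd177 and Itgb2l are not on the list and were named for their large falls, and the next 3 are among the 12 hosts counted above. Cd177, a neutrophil surface protein, had 8.48 to 11.5 CPM in KO and 230 to 280 CPM in NHD13 (log2 fold change -4.65, SE 0.11, edgeR adjusted p = 4.13e-16). Itgb2l, a beta integrin of granulocytes, had 3.32 to 3.69 CPM in KO and 69.6 to 77.8 CPM in NHD13. Fcnb, a ficolin, had 303 to 322 CPM in KO and 1956 to 2109 CPM in NHD13, and the lysozyme gene Lyz2 838 to 853 CPM in KO and 3850 to 4633 CPM in NHD13. Elane, neutrophil elastase, fell less (log2 fold change -0.91, SE 0.08, edgeR adjusted p = 1.62e-08), with 18089 to 21232 CPM in KO and 33255 to 38863 CPM in NHD13. Each of these genes lay under NHD13 AML peaks, from 10.9% of Itgb2l to 83.1% of Fcnb, and under no KO AML peak.

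Some genes without a KO AML peak, picked here for their large changes, strong peak or many peaks, had high RNA levels in AML. Among protein-coding hosts in AML, 82.2% of those without a KO AML peak and 96.4% of those with one had a mean of at least 1 FPKM. In the AML libraries, which carry the genotype of the KO AML ChIP library, Lcn2 had 1218, 1214 and 1209 CPM, Cd177 326, 337 and 334 CPM and Itgb2l 111, 114 and 110 CPM. All of these were above every KO marrow library (for Cd177 a log2 fold change of 5.02, SE 0.11, edgeR adjusted p = 1.98e-17). Abca13, with 52 lost short peaks, had 59.6, 59.7 and 59.2 CPM in AML, 2.42, 2.25 and 2.47 CPM in KO, and 15.0, 20.9 and 15.2 CPM in NHD13. It rose in AML over KO (log2 fold change 4.65, SE 0.15, edgeR adjusted p = 7.9e-16) and fell in KO over NHD13 (-2.84, SE 0.15, edgeR adjusted p = 2.07e-11). Csf2ra had 364, 409 and 361 CPM in AML, 89.5, 90.9 and 87.3 CPM in KO, and 184, 159 and 215 CPM in NHD13. Both comparisons of Csf2ra were called, 2.08 (SE 0.13, edgeR adjusted p = 1.18e-08) in AML over KO and -1.06 (SE 0.13, edgeR adjusted p = 3.54e-05) in KO over NHD13.

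Afap1, an actin-filament adaptor that binds Src kinase, had neither KO AML peaks nor much RNA in AML or KO. It held 6 lost short peaks and 1 long peak, with 87.7 kb (79.3% of the gene) under NHD13 AML peaks and none under KO AML peaks. Its RNA was 0.58, 1.14 and 0.522 CPM in KO and 36.4, 38.4 and 36.3 CPM in NHD13 (log2 fold change -5.56, SE 0.19, edgeR adjusted p = 3.99e-14). In AML it stood at 0.259, 0.255 and 0.156 CPM, and in WT at 17.2, 17.1 and 12.9 CPM. Cldn15, whose promoter is printed above, had 60.9, 67.3 and 62.8 CPM in KO and 262, 259 and 250 CPM in NHD13 (log2 fold change -2.01, SE 0.06, edgeR adjusted p = 1.1e-14). Its AML libraries had 33.2 to 36.7 CPM, lower than any KO library.

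Stem and progenitor genes among the hosts mostly rose in KO. Of 29 genes on the stem cell and Hox list, 10 were hosts, next to 5688 of all 20665 protein-coding genes. Of the 10, 7 were higher and 1 lower in KO than in NHD13. Of the whole list 22 were higher and 2 lower, against 20.6% and 20.3% of all genes. Flt3, a receptor of early progenitors, had 37.6, 31.3 and 35.5 CPM in KO and 0.81, 1.1 and 1.24 CPM in NHD13 (log2 fold change 5.03, SE 0.12, edgeR adjusted p = 3.01e-16). Cd34, a stem cell sialomucin, had 143, 154 and 146 CPM in KO and 11.7, 12.6 and 13.6 CPM in NHD13 (log2 fold change 3.54, SE 0.07, edgeR adjusted p = 2.63e-17). In these 2 genes the KO AML list covered more than the NHD13 AML list, 3.44 kb against 1.24 kb in Cd34 and 2.78 kb against 1.32 kb in Flt3. Their lost short peaks thus lay beside other KO AML peaks. Other hosts of the list went the other way, with 22.4 kb against 62.4 kb in Kit and 7.36 kb against 96.8 kb in Pbx3. Adgrg1, an adhesion receptor of stem cells, had 420 to 484 CPM in KO and 54.3 to 59.4 CPM in NHD13, and 19.2 kb under KO AML peaks against 13.0 kb under NHD13 AML peaks. Tsc22d1, a regulator of transcription, rose as well, with 352, 347 and 354 CPM in KO and 36.6, 43.8 and 37.4 CPM in NHD13, but had 11.8 kb under NHD13 AML peaks and no KO AML peak. Hoxa9, a homeobox gene of leukemic self-renewal, had 128 to 142 CPM in KO and 83.9 to 84.9 CPM in NHD13 (log2 fold change 0.68, SE 0.06, edgeR adjusted p = 3.25e-08). Hoxa9 had 0.759 kb under NHD13 AML peaks and no KO AML peak. The summed level of the 5 progenitor markers, among them Flt3 and Cd34, was 546 to 556 CPM in KO and 209 to 218 CPM in NHD13, without TMM factors.

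**Figure D5:**
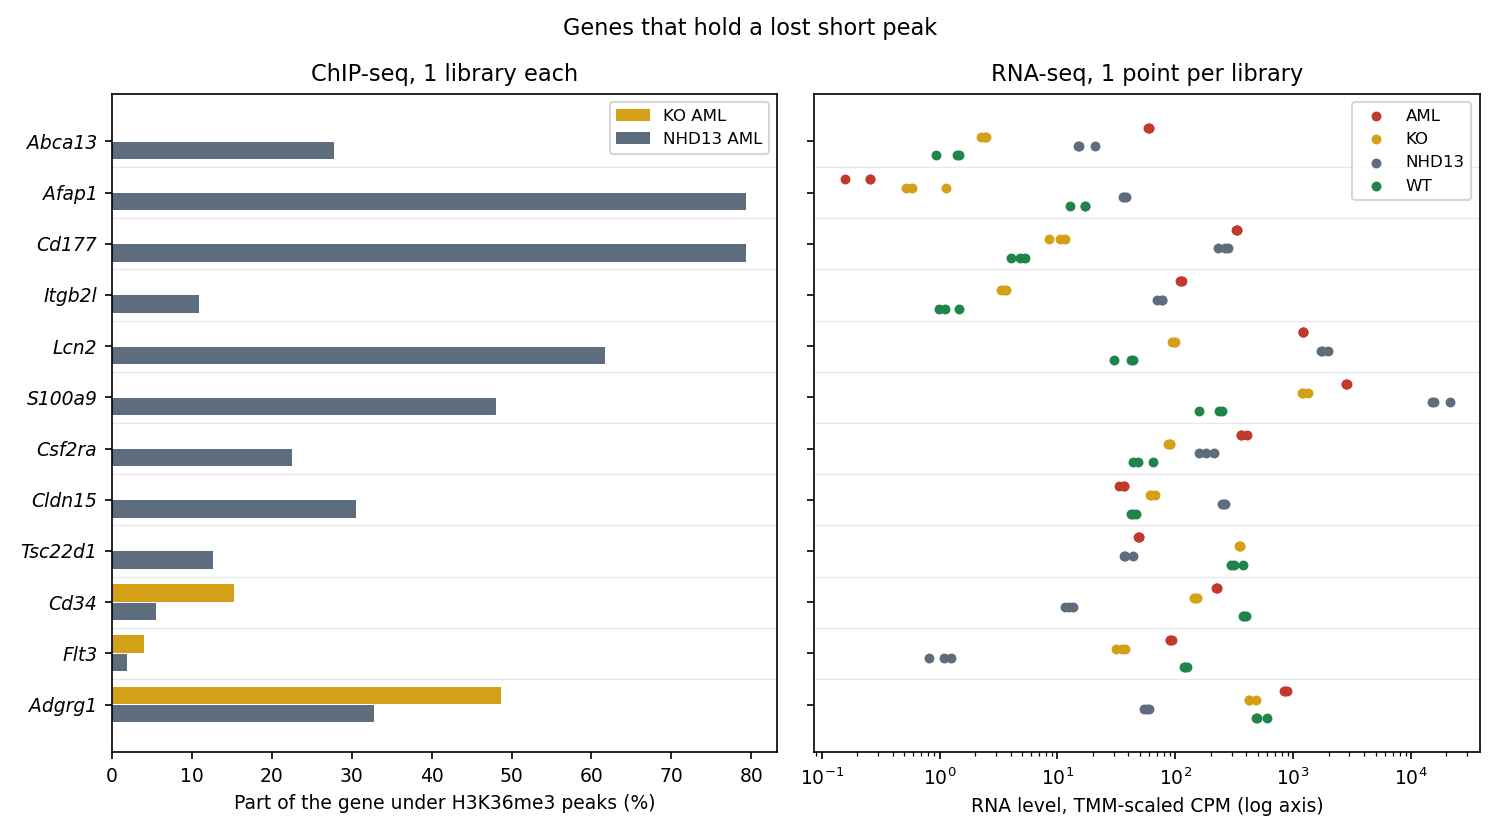
Percent of each gene under peaks (left, KO AML above NHD13 AML, 1 library each) and RNA level in TMM-scaled CPM on a log axis (right, 1 point per library, in the order AML, KO, NHD13, WT from top) for 12 host genes. The genes from Abca13 to Tsc22d1 have no KO AML peak, and in Cd34, Flt3 and Adgrg1 the KO AML bar is the longer one.

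Genes of the H3K36 and DNA methylation machinery were hosts too. All 7 listed H3K36 methyltransferase genes held a lost short peak, 22 peaks in all, and 1 of the 7 had no KO AML peak. Among all 20665 protein-coding genes 5688 were hosts, and no list's share of hosts was tested against that. In KO over NHD13, Nsd3 was higher (log2 fold change 0.26, edgeR adjusted p = 0.0184) and Nsd2 (-0.24, edgeR adjusted p = 0.00609) and Nsd1 (-0.18, edgeR adjusted p = 0.0401) were lower. Nsd1 lost the call without any library but the third NHD13 one (edgeR adjusted p from 0.0872 to 0.244), and Nsd3 without the first KO library (0.106) or the first NHD13 library (0.0744). Ash1l (0.19, edgeR adjusted p = 0.0692) passed without the second NHD13 library (0.28, edgeR adjusted p = 0.0102). Of the 5 host genes among 8 DNA methylation genes, 4 were higher in KO and none was lower, and over the whole list 4 were higher and 1 was lower. The shares over all genes were 20.6% higher and 20.3% lower, and over all hosts 20.3% and 26.3%. Among the 4, Tet3 (log2 fold change 0.25, edgeR adjusted p = 0.0391) lost the call without KO replicate 1 (edgeR adjusted p = 0.0882), KO replicate 3 (0.107) or NHD13 replicate 1 (0.172). Dnmt3b, the reader of the mark named above, had 45.4, 50.2 and 46.4 CPM in KO and 16.1, 15.2 and 19.6 CPM in NHD13 (log2 fold change 1.48, SE 0.09, edgeR adjusted p = 6.79e-11). It had 12 kb under KO AML peaks and 21.6 kb under NHD13 AML peaks, and Dnmt3a, with a log2 fold change of 0.83 (SE 0.12, edgeR adjusted p = 3.75e-05), had 11.3 kb and 29.5 kb. Among 13 host genes on the elongation list, 1 rose and none fell (2 and 1 of the 21 listed), and among 18 on the Polycomb list 3 rose and 2 fell (5 and 5 of 27). Both are no more than the shares over all genes. Of 9 tested hosts among readers and erasers of the mark, 3 rose and 1 fell (6 and 3 of 19). Of 7 erythroid hosts 1 rose and 3 fell (3 and 10 of 30). Of 17 leukemia-associated hosts 8 rose and 2 fell (10 and 2 of 23), and those that rose include Kmt2a, the MLL methyltransferase (log2 fold change 0.83, SE 0.08, edgeR adjusted p = 2.11e-07), and the ETS repressor gene Etv6 (0.67, SE 0.06, edgeR adjusted p = 1.38e-08). These counts are from the TMM scaling.

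In AML over KO, several of the hosts named for the largest changes were nearly silent on one side, and 3 of them are given here. Map3k9, a mixed-lineage kinase, had 27.4, 28.8 and 26.5 CPM in AML and 0.263, 0.0381 and 0.19 CPM in KO (log2 fold change 7.46, SE 0.23, edgeR adjusted p = 8.2e-16), with 42.0 kb under NHD13 AML peaks and none under KO AML peaks. Ciita, the transactivator of MHC class II genes, had 37.6, 36.4 and 35.3 CPM in AML and 0.58, 0.0761 and 0.142 CPM in KO (log2 fold change 7.2, SE 0.26, edgeR adjusted p = 6.73e-15). Only 0.435 kb of Ciita (0.852% of the gene) lay under NHD13 AML peaks, and none under KO AML peaks. The summed level of the 5 dendritic cell markers (Siglech, Itgax, Flt3, H2-Aa and Cd74) was 996 to 1010 CPM in AML and 45.1 to 48.8 CPM in KO, without TMM factors. The sum cannot measure cell makeup apart from Ciita, since H2-Aa is itself an MHC class II gene. The part of cell makeup in the rise of Ciita was not tested. Got1, the cytosolic aspartate aminotransferase, went the other way, with 0.129, 0.17 and 0.195 CPM in AML and 13.6, 15.3 and 14.5 CPM in KO (log2 fold change -6.4, SE 0.17, edgeR adjusted p = 1.14e-16). It lay under 12.6 kb of NHD13 AML peaks and no KO AML peak.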

How the data were processed

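Peak lists, 1 per ChIP library, were deposited by the authors with a fold enrichment, a score and −log10 p- and q-values; Bowtie2 2.2.9 and MACS2 2.1.1.20160309 on mm10 are named in the submitters' processing notes. Read counts per gene (HISAT2 2.0.5, HTSeq 0.9.1, per the same notes) and FPKM values, which carry no composition correction, were deposited by the authors. The DMR tables the authors deposited give methylation of both sides as a fraction; neither caller nor coverage is stated, and sides were taken from the tables' names and checked on 3849 and 2236 identical regions. The regions, gene lists and named genes were chosen with earlier results of these data known. Here peaks were split by overlap and matched to RefSeq genes and promoters (GRCm38.p6, the build of mm10), and counts were tested with edgeR 4.0.16 (R 4.3.3: TMM, filterByExpr, 4 groups in 1 model, robust quasi-likelihood F test, Benjamini-Hochberg adjustment over 16233 genes at 0.05). The fit was tested on simulated data. Named genes are Setd2, the hosts with most lost short peaks, strongest peaks, largest changes with no overlap between libraries and at least 10 CPM, list members with the smallest p, and hosts of the largest DMRs and of covered promoters; the text prints part of them. Antisense and overlapping genes are uncertain, since strand use is not stated. Same-numbered libraries did not deviate together (r from -0.0847 to 0.0337), so no pairing was used.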

Additional observations from a re-analysis of the deposited data

How the results depend on the processing

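The enrichment limit, a restriction to protein-coding hosts and the alternatives for the share of DMRs that were lower were chosen after seeing the data. The number of lost short peaks was 7412 with a −log10 q of at least 5 and 7605 above the lowest enrichment of the KO AML list, both fewer by construction, and stayed within 1.5 times of 21155 under the other definitions. The share lost was 97.1% when a KO AML peak had to cover 50% of the peak, 85.2% and 75.2% when a KO AML peak within 1000 or 5000 bp counted, 74.0% with a −log10 q of at least 5, 91.6% below 5000 bp and 74.3% above the lowest KO AML enrichment. The share in genes was 95.4% by midpoint and 98.0% with a −log10 q of at least 5. The share over a DMR in KO over NHD13 was 3.25% with at least 50% of the DMR inside, 1.26% for differences of 0.3 or more and 6.06% with a −log10 q of at least 5; in AML over KO these were 3.85%, 1.43% and 6.29%, and in NHD13 over WT 4.06%, 1.8% and 7.1%. DMRs lower in KO than NHD13 made up 71.2%, 72.8%, 72.5% and 72.2% with differences of 0.3 or more, a −log10 q of at least 5, at least 10 CpG sites and the enrichment limit, and DMRs lower in NHD13 than WT 71.9% with at least 10 CpG sites.

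In KO over NHD13, limma on log2(FPKM + 1) and log2(FPKM + 0.1) called 1675 and 1783 genes lower instead of 3295, and 726 and 763 hosts lower instead of 1504. Hosts with no KO AML peak gave 512 higher and 916 lower in KO over NHD13, and 1285 and 1282 in AML over KO, by construction fewer. Leaving out 1 library gave 2876 to 3170 genes higher and 2869 to 3169 lower, and 996 to 1111 hosts higher and 1293 to 1450 lower; in AML over KO, 6850 to 7052 and 6262 to 6331 genes, and 2859 to 2902 and 1923 to 1952 hosts. Upper-quartile factors moved the median of all genes in AML over KO to -0.11, against 0.07, and hosts stayed 0.24 above it, against 0.25. With the replicate number as a block, 1135 hosts were higher and 1472 lower in KO over NHD13, and 2908 and 1990 in AML over KO; same-numbered libraries share only a number. The median AML level of hosts was 5.56 FPKM after division by TMM factors and 4.5 FPKM without a KO AML peak, and 6.85 to 6.92 FPKM with 1 library left out.

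With the 2 pseudocounts, Nsd1 (0.01 and 0.01) and Cpox (0.01 and 0.01) turned sign in KO over NHD13, and Ubxn11 (0.26 and 0.32), Pwwp2a (0.17 and 0.2) and Ncf4 (0.32 and 0.32) in AML over KO; the cause was not tested. Of the comparisons of single named genes with a library left out, 1038 kept direction and call, 34 lost the call and 8 gained it. The ChIP and bisulfite results rest on 1 library a group, which no alternative can stand in for.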

Other observations

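The sex chromosomes were outside the rule. On chromosome X the KO AML list held 112 peaks over 0.107 Mb and the NHD13 AML list 947 peaks over 2.56 Mb, and 871 of 906 short NHD13 AML peaks there had no KO AML peak (96.1%, Wilson 95% interval 94.7% to 97.2%), against 86.4% on chromosomes 1 to 19. The NHD13 AML peaks on X were also shorter and weaker. Their medians were 1443 bp and 4.12-fold, against 2558 bp and 4.43-fold on chromosomes 1 to 19. The part of length and enrichment in the higher share on X was not tested. On chromosome Y the lists held 6 and 36 peaks. Labels do not give the sex of the mice behind either ChIP library.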
